A study of Mus musculus with 24 samples.

Results

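The genes examined here are 43 cell cycle and proliferation genes in the skin of mouse embryos with and without desmoglein 1. They were chosen by name, as a set of well-known genes of DNA replication and cell division, with earlier results of these data known. A total of 16 act at the start of S phase or during DNA replication, 24 act in G2 phase and mitosis, 2 are cyclins of G1 phase (Ccnd1 and Ccnd2) and 1 is an inhibitor of cyclin-dependent kinases (Cdkn1a). All 43 were among the 54087 gene symbols of the read count table, and all 43 were among the 17094 genes with enough counts to be tested. The comparison of interest was between the S phase genes and the mitotic genes in each genotype.

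RNA-Seq was performed on skin at E18.5, near the end of gestation, from 3 genotypes that the labels call WT, HET and KO. WT embryos carried both intact copies of the Dsg1 gene cluster, HET embryos carried 1 intact copy and KO embryos carried none. Dsg1 encodes desmoglein 1, a cadherin of the desmosomes that hold the upper epidermal layers together. The deleted allele was made by CRISPR/Cas9 editing of C57BL/6J zygotes, removes the whole tandem cluster of Dsg1a, Dsg1b and Dsg1c from all tissues, and goes back to a single founder that was then backcrossed. The study's methods state that both sexes were used. Each genotype had 8 libraries, which carry 5 different numbers in their titles, and libraries with the same number and genotype were added together to give 5 samples per genotype. By the form of their titles the libraries fell into series 1 (9 libraries) and series 2 (15 libraries), and 9 title numbers occurred in both. WT replicates 1 and 5, HET replicates 4 and 5 and KO replicates 4 and 5 had a library of series 2 only. What sets the series apart is not stated in the labels. The labels do not say whether a title number stands for an animal, so the spread between samples is the spread between title numbers.

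The cell cycle copies the genome in S phase and divides it in mitosis, and the genes for each step are transcribed in waves. E2F transcription factors switch on the S phase wave (Mcm2 to Mcm7, Pcna, Cdc6, Ccne1), and the DREAM, B-MYB and FOXM1 complexes control the later G2 and mitotic wave (Ccnb1, Cdk1, Plk1, Cdc20). In late fetal epidermis, dividing keratinocytes are found mainly in the basal layer and in hair follicles, and cells leave the cycle as they move up and cornify. Dermis, vessels and blood cells of the same tissue also divide. In RNA from whole skin, fewer dividing cells and less of these transcripts per dividing cell cannot be told apart.

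The promoters of the 2 waves are known for different sequence words. Promoters from RefSeq on the GRCm38.p6 build, each with 250 bases before and 50 bases after the start of transcription, were available for 33 of the 43 genes. They were searched on both strands for E2F words (TTTGGCGC, TTTCCCGC, TTTCGCGC or TTTGCCGC), for words of the cell cycle homology region, or CHR (TTTGAA or TTTAAA), and for the CCAAT box. E2F words were found in 6 of 13 S phase promoters (46.2%) and in 1 of 19 mitotic promoters (5.26%), against 2.32% of all 27025 mouse promoters. CHR words were found in 4 of 13 S phase promoters (30.8%) and in 17 of 19 mitotic promoters (89.5%), against 27.8% of all promoters. The CCAAT box was found in 8 of 13 S phase promoters (61.5%), in 17 of 19 mitotic promoters (89.5%) and in 37.9% of all. At least 2 CCAAT boxes were found in 38.5% of S phase promoters, 57.9% of mitotic promoters and 12.2% of all. An E2F word on one strand can overlap one on the other strand, and a promoter with any match was counted once. A match describes these letters and is not evidence of binding in skin.

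The last 150 bases before the start of transcription are shown for 2 replicative helicase subunits of the S phase group and for 4 mitotic genes, because they hold examples of the words whose frequency differed between the 2 groups. Capitals mark the E2F, CHR and CCAAT words on either strand (ATTGG is CCAAT, and TTCAAA is TTTGAA, on the opposite strand), and each sequence is read 5′ to 3′ in the direction of transcription.
Mcm6 (chr1:128359706-128359855, minus strand): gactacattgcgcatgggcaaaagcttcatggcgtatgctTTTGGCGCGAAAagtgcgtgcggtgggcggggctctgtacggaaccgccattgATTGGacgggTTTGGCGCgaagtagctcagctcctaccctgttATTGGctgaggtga
Mcm5 (chr8:75109359-75109508, plus strand): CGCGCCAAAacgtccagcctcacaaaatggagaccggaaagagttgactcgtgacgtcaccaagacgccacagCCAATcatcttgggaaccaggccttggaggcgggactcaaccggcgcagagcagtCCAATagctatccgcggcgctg
Cdk1 (chr10:69352913-69353062, minus strand): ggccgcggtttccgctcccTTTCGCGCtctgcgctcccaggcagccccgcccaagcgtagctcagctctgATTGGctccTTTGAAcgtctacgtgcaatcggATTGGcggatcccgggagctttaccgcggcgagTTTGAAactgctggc
Ccnb1 (chr13:100786487-100786636, minus strand): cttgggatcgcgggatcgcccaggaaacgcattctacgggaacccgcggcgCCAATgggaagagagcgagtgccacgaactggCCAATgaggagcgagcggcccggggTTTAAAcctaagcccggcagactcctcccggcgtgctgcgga
Cdc20 (chr4:118437344-118437493, minus strand): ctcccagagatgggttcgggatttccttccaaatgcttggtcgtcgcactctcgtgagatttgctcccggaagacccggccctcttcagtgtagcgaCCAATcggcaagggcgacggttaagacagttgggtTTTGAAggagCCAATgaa
Ube2c (chr2:164769779-164769928, plus strand): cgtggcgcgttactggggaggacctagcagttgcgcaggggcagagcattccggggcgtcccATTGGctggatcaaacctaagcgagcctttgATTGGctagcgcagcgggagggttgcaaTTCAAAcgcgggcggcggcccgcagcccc
Mcm6 holds 3 E2F words and no CHR word in this stretch, and in Mcm5 the capitals at the left edge belong to 2 overlapping E2F words, of which 1 begins just outside it. Ccnb1, Cdc20 and Ube2c, which encode cyclin B1 and an activator and an enzyme of the anaphase-promoting complex, each hold a CHR word downstream of their CCAAT boxes or between them. Cdk1 was the only one of the 19 mitotic promoters with an E2F word as well as CHR words.

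Depth was high for all 43 genes. The 15 samples held 15.3 to 33.7 M counts (M, mega; WT 19.5 to 33.7, HET 15.3 to 29.8, KO 20.7 to 33.6), and the lowest count of any cell cycle gene in any sample was 212, for Cdc6. Levels are given as CPM, read counts scaled for depth with TMM factors. The summed Dsg1 genes averaged 806 ± 112 CPM in WT (SD, n = 5), 422 ± 51.5 CPM in HET and 0.548 ± 0.343 CPM in KO, so the Dsg1 level of all samples matched their genotype labels (two-sided exact permutation test on log2(CPM + 1), p = 0.00794 for KO and for HET against WT, the smallest value this design allows). One sample, WT replicate 2, was made of 2 libraries of which 1 had Y-linked transcripts at 325 CPM and the other Xist at 567 CPM, so its libraries differ in sex. The chi-square statistic of their counts, divided by its degrees of freedom, was 15.6, against 1.59 to 1.86 for the other 8 numbers with 2 libraries, and the first was nearest to a library of number 37, a HET, and the second to one of number 38, a WT. The summed Dsg1 level of 709 and 734 CPM was above that of every HET library (368 to 492 CPM) in both, and which of them carries the right number is not known. Results that rest on it were computed again without it and with its libraries kept apart.

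All 43 genes were expressed in every sample of every genotype. Per kilobase of exon, the highest level in WT skin was that of Cdkn1a (p21, the kinase inhibitor that holds cells out of S phase), at 102 ± 15.4 CPM per kilobase (SD, n = 5). It was followed by Pcna (the sliding clamp of DNA polymerase) at 47.9, Ccnb2 (cyclin B2) at 36.6 and Cdc20 at 35.9 CPM per kilobase. At the lower end were Cenpe and Cenpf (kinetochore proteins) at 5.29 and 4.41 and Cdc6 (which loads the helicase onto origins) at 2.49 CPM per kilobase. When the genes were placed in order of their WT level per kilobase, 38 of the 42 pairs of neighbours overlapped in their ranges over the 5 WT samples. The neighbours that did not overlap were Cdkn1a above Pcna, Mki67 above Mcm2, Foxm1 above Prc1 and Cenpf above Cdc6. These levels depend on the exon length taken for each gene, here all annotated exons merged.

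KO skin was compared with WT skin to ask whether loss of Dsg1 changes the transcripts of dividing cells. None of the 43 genes met both thresholds of the study, an adjusted p of at most 0.1 and a log2 fold change of at least 1 in either direction, against 0.322% of all genes tested (quasi-likelihood test of edgeR with Benjamini-Hochberg adjustment over all 17094 genes). None reached an adjusted p of 0.1 or below at any fold change, against 1.15% of all genes, and the smallest adjusted p of the 43 was 0.125. At an unadjusted p below 0.05 there were 5 of 43, of which 3 were higher and 2 lower in KO, against 19.3% of all genes. DESeq2 gave 1 gene with an adjusted p of at most 0.1, E2f1, or 2.33% of the 43 against 8.49% of all genes, and 6 genes (14.0%) at an unadjusted p below 0.05 against 20.5%. Limma-voom gave 3 (6.98%) at an unadjusted p below 0.05 against 19.6%. At both thresholds of the study, edgeR called 55 of all genes tested, limma-voom 106 and DESeq2 190, with none of the 43 among them. The study reported more genes at these thresholds at E18.5 than edgeR called here. The edgeR number of 5 at an unadjusted p below 0.05 fell to 1 without WT replicate 2, WT replicate 3 or KO replicate 1 (14.9%, 16.4% and 16.2% of all genes). It fell to 2 without WT replicate 5 (16.4%). It was 3 without HET replicate 1 or HET replicate 5 (18.2% and 17.9%), which enter through the shared spread. It was also 3 among genes with a mean of at least 50 counts (20.9%). With only the 2 genotypes fitted it was 2 (16.1%), in series 1 alone 2 (8.65%) and with 24 separate libraries 10 (31.7%).

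The size of the differences was small. The log2 fold changes of the 43 genes in KO vs WT ran from -0.37 for E2f1 to 0.26 for Cenpf, and all 43 of the 95% intervals lay inside -1 to 1. The lowest bound was -0.73, for Ccne2, and the highest was 0.53, for Cenpf. For 36 genes the interval lay inside -0.5 to 0.5.

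**Figure D1:**
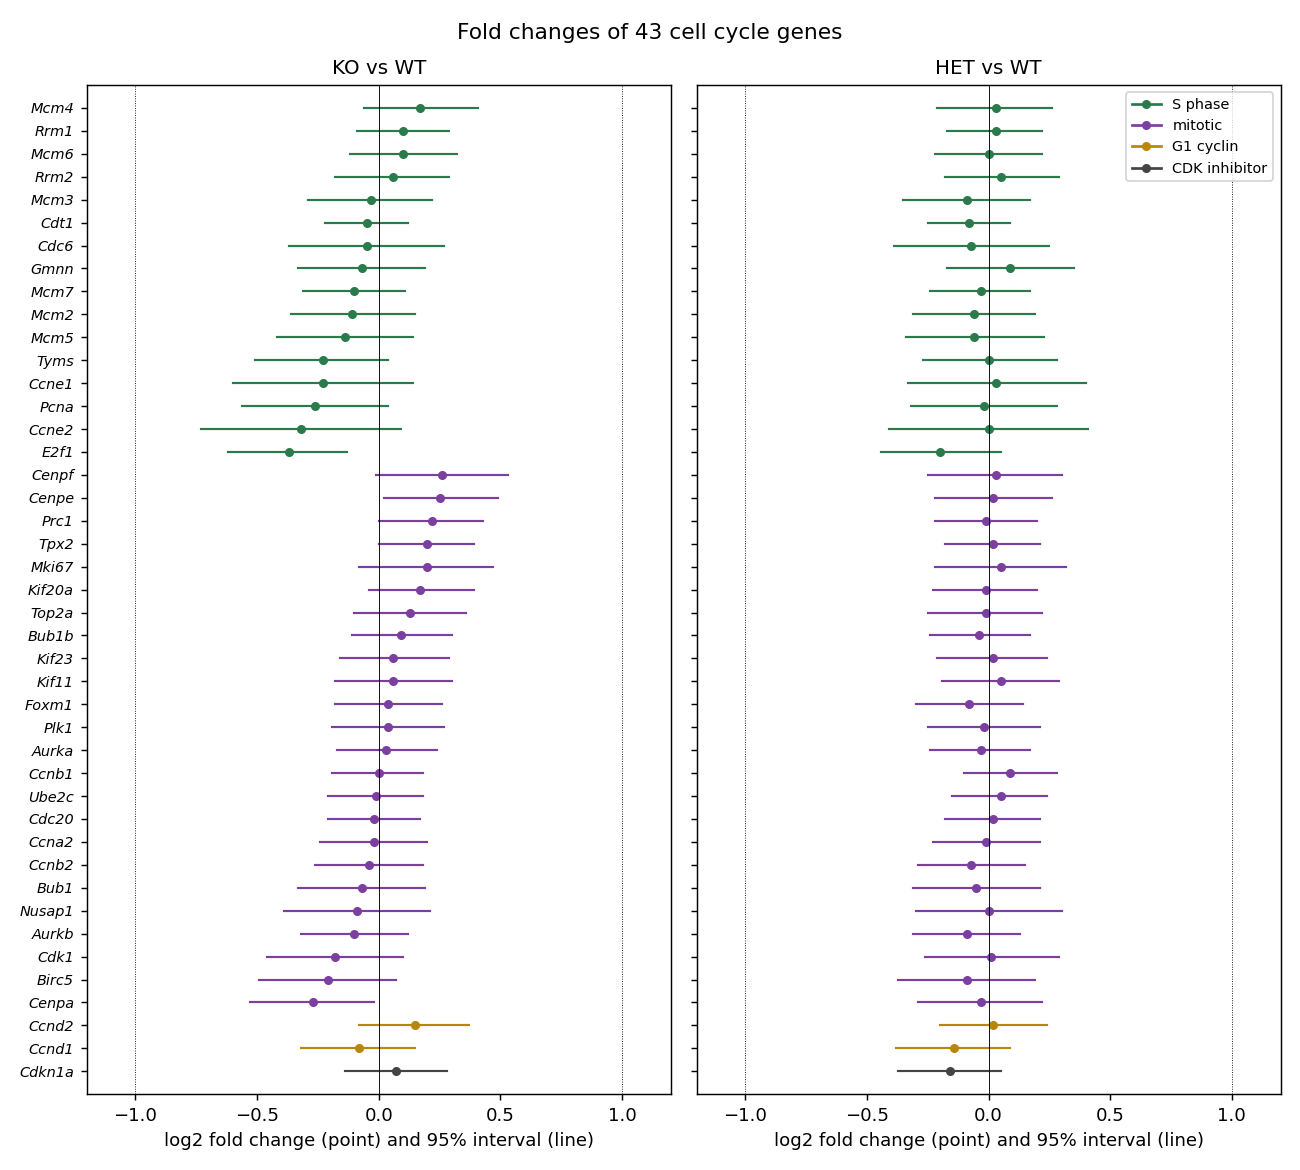
Log2 fold change (horizontal axis) of each of the 43 cell cycle genes (rows) in KO vs WT (left) and HET vs WT (right). Points are the edgeR estimates, lines are 95% intervals, colors give the gene group and dotted lines mark -1 and 1. All intervals stay between the dotted lines, and the S phase genes at left run from -0.37 (E2f1) to 0.17 (Mcm4).

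Among the genes that start S phase, E2f1 stood lowest in KO. E2f1 encodes the transcription factor that activates the S phase wave. Its level in the 5 WT samples was 49.2, 41.4, 40.6, 46.3 and 44.7 CPM, in the 5 HET samples 39.1, 39.2, 38.7, 35.3 and 41.2 CPM, and in the 5 KO samples 39.7, 30.4, 40.1, 24.2 and 36.8 CPM. All 5 KO samples lay below all 5 WT samples, and 4 of 5 HET samples were also below every WT sample. This was the only one of the 43 genes whose KO and WT samples did not overlap, against 3.37% of all genes tested. The means were 34.2 ± 6.83 CPM in KO and 44.4 ± 3.56 CPM in WT (SD, n = 5), a log2 fold change of -0.37 (SE 0.12, 95% interval -0.62 to -0.13). The edgeR quasi-likelihood test gave an adjusted p of 0.125, so E2f1 did not pass. Over the alternative settings the adjusted p ran from 0.0176 to 0.592, and it was at 0.1 or below in 5 of 27: 0.0622 with DESeq2, 0.0176 with 24 separate libraries, 0.0813 with the libraries of WT replicate 2 kept apart, 0.0843 without KO replicate 3 and 0.0804 without KO replicate 5. Without WT replicate 2 the log2 fold change was -0.40 with an adjusted p of 0.225.

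The G1/S cyclins varied more between samples than E2f1. Ccne2 (cyclin E2, which drives entry into S phase with Cdk2) was at 56.2, 50.6, 53.3, 30.6 and 55.3 CPM in WT and at 40.7, 31.8, 41.2, 25 and 58.3 CPM in KO. WT replicate 4 was far below the other WT samples, KO replicate 5 was above every WT sample, and the groups overlapped (log2 fold change -0.32, 95% interval -0.73 to 0.09). Its adjusted p in the edgeR test was 0.365. Ccne1 (cyclin E1) gave a log2 fold change of -0.23 (95% interval -0.60 to 0.14), with 18.2 ± 4.82 CPM in KO and 21.4 ± 4.58 CPM in WT (SD, n = 5).

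Origin licensing genes differed little. Cdt1, which brings the Mcm2 to Mcm7 helicase to origins, was at 32 ± 3.66 CPM in KO and 33.2 ± 2.07 CPM in WT, and its interval of -0.22 to 0.12 was the narrowest of the S phase genes in KO vs WT. Gmnn (geminin, the inhibitor of Cdt1) and Cdc6 gave log2 fold changes of -0.07 and -0.05. None of the 6 helicase subunits had an unadjusted p below 0.05. Mcm2, Mcm3, Mcm4, Mcm5, Mcm6 and Mcm7 gave -0.11, -0.03, 0.17, -0.14, 0.10 and -0.10, and the lowest of the 6 interval bounds was -0.42 (Mcm5) and the highest 0.41 (Mcm4).

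DNA synthesis genes also overlapped between KO and WT. Pcna was at 149, 113, 109, 81.6 and 122 CPM in WT and at 98.9, 83.7, 96.3, 77.0 and 125 CPM in KO. KO replicate 5 was above 4 of the 5 WT samples and WT replicate 4 was below 4 of the 5 KO samples, so the groups overlapped (log2 fold change -0.26, 95% interval -0.56 to 0.04). Tyms (thymidylate synthase) gave -0.23 (-0.51 to 0.04). The ribonucleotide reductase subunits Rrm1 and Rrm2, which make deoxynucleotides, gave 0.10 (-0.09 to 0.29) and 0.06 (-0.18 to 0.29).

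Among the mitotic genes, 4 of 24 had an unadjusted p below 0.05 in KO vs WT, against 19.3% of all genes, and none passed the adjusted test. Their values are given as a description. Cenpa, the histone H3 variant that marks centromeres, was at 113, 91.3, 92.1, 71.5 and 78.5 CPM in WT and at 68.5, 71.8, 79.2, 59.6 and 91.4 CPM in KO. The log2 fold change was -0.27 (SE 0.12, adjusted p = 0.237 by edgeR), and 2 of 5 KO samples were below all WT samples. Cenpe, a kinetochore motor that moves chromosomes to the spindle equator, was at 47.2, 45, 42.4, 48.7 and 44.6 CPM in WT and at 68.0, 52.8, 52.1, 43.7 and 55.0 CPM in KO. In this case 4 of 5 KO samples were above all WT samples and KO replicate 4 was among the WT values (0.25, SE 0.11, adjusted p = 0.233 by edgeR). Tpx2, which activates Aurora A at the spindle, gave 0.20 (SE 0.09, adjusted p = 0.250), and Prc1, which bundles microtubules of the midzone, gave 0.22 (SE 0.10, adjusted p = 0.252). For each of these 2 genes, 3 of 5 KO samples were above all WT samples.

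The genes most often used as proliferation markers overlapped between genotypes. Mki67 (Ki-67, a protein of the surface of mitotic chromosomes) was at 208, 190, 185, 226 and 181 CPM in WT, at 214, 172, 189, 247 and 205 CPM in HET and at 312, 202, 222, 201 and 196 CPM in KO. KO replicate 1 stood above all others, and the other 4 KO samples lay within the WT range. The log2 fold change in KO vs WT was 0.20 (95% interval -0.08 to 0.47). Top2a (topoisomerase II alpha, which untangles sister chromatids) was at 271 ± 43.2 CPM in KO and 247 ± 14.5 CPM in WT (SD, n = 5), a log2 fold change of 0.13 (-0.10 to 0.36). Birc5 (survivin, of the chromosomal passenger complex) gave -0.21 (-0.49 to 0.07).

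**Figure D2:**
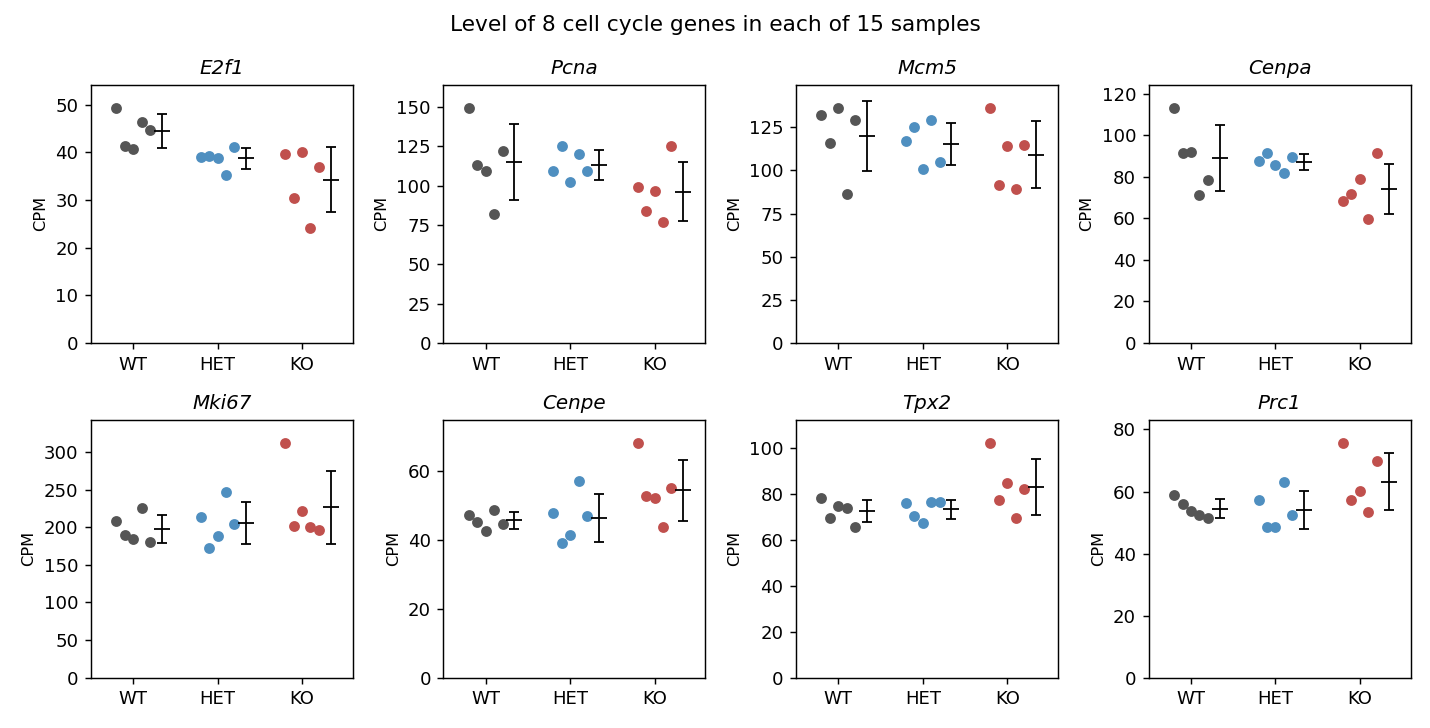
CPM (vertical axis, from 0) of 8 cell cycle genes in the 5 WT, 5 HET and 5 KO samples. Points are samples, in the order of replicates 1 to 5 within each genotype, and the bar beside them is the mean with the SD. For E2f1 the KO points (24.2 to 40.1) all lie below the WT points (40.6 to 49.2), and in the other 7 panels the KO and WT points overlap.

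The mitotic kinases and cyclins differed by less than their spread. Cdk1 was at 97.3 ± 19.6 CPM in KO and 110 ± 19.8 CPM in WT (log2 fold change -0.18, 95% interval -0.46 to 0.10). Ccnb1, its cyclin B1 partner, was at 24.3 ± 2.65 and 24.4 ± 2.21 CPM (-0.00, -0.19 to 0.18). Ccnb2 and Ccna2 (cyclin A2) gave -0.04 and -0.02. Plk1, Aurka and Aurkb, kinases of spindle assembly and chromosome segregation, gave 0.04, 0.03 and -0.10. Bub1 and Bub1b of the spindle checkpoint gave -0.07 and 0.09, and Cdc20 and Ube2c, which trigger anaphase, gave -0.02 and -0.01.

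The remaining mitotic genes were motors, spindle proteins and a regulator. The kinesins Kif11, Kif20a and Kif23 gave 0.06, 0.17 and 0.06. Cenpf gave 0.26 (-0.01 to 0.53), Nusap1 (a spindle microtubule protein) -0.09 (-0.39 to 0.21) and Foxm1, the transcription factor of the mitotic wave, 0.04 (-0.18 to 0.26).

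The G1 cyclins and the inhibitor lay outside the 2 waves. Ccnd1 and Ccnd2 (cyclins D1 and D2, which couple growth signals to the cycle) gave -0.08 (-0.32 to 0.15) and 0.15 (-0.08 to 0.37) in KO vs WT. Cdkn1a was at 311, 334, 333, 441 and 401 CPM in WT, at 305, 371, 305, 335 and 314 CPM in HET and at 350, 425, 370, 370 and 398 CPM in KO. All 5 KO samples lay within the WT range, and 2 were above all HET samples. The log2 fold change was 0.07 (-0.14 to 0.28) in KO vs WT, and 0.23 in KO vs HET (SE 0.10, unadjusted p = 0.0352, adjusted p = 0.277 by edgeR).

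HET skin showed the smallest differences. None of the 43 genes was called in HET vs WT and none reached an adjusted p of 0.1 or below, against 0% of all genes in both cases. There were 0 of 43 at an unadjusted p below 0.05, against 1.58% of all genes, with edgeR, DESeq2 and limma-voom, and 1 when KO replicate 4 was left out of the fit. The samples overlapped for all 43 genes, against 0.374% of all genes that did not overlap. Log2 fold changes ran from -0.20 (E2f1, 95% interval -0.44 to 0.05) to 0.09 (Gmnn), and all 43 intervals lay inside -0.5 to 0.5.

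In KO vs HET, none of the 43 genes was called (against 0.181% of all genes) or reached an adjusted p of 0.1 or below (0.333%). At an unadjusted p below 0.05 there were 2, Prc1 and Cdkn1a, both higher in KO, against 16.0% of all genes with edgeR, and DESeq2 and limma-voom gave 4 and 3 (16.8% and 17.7% of all genes). No gene had samples that did not overlap, against 2.25% of all genes. Log2 fold changes ran from -0.32 (Ccne2) to 0.23 (Cenpe), and E2f1 gave -0.18 (-0.42 to 0.07). The number of 2 was 7 without HET replicate 4, 6 without KO replicate 4, 5 without KO replicate 5, 4 without WT replicate 4, 1 without HET replicate 1 or 2, and 0 without HET replicate 3 or 5.

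The S phase and mitotic genes were then set side by side as groups. In KO vs WT, 12 of 16 S phase genes had a log2 fold change below 0 and 4 above, with a median of -0.08, against 8782 of all 17094 genes below 0. Of the 24 mitotic genes, 13 were above 0 and 11 below, with a median of 0.04. Over all genes tested the median was -0.01. The medians of the S phase and mitotic genes thus differed by -0.12, and the difference was below 0 under all 29 alternative settings, from -0.16 to -0.08. These settings share samples and are not separate checks. Leaving out a HET replicate, for example, hardly touches KO vs WT (medians -0.08 and 0.03 or 0.04). Under other settings the medians themselves moved more than their difference. Without KO replicate 1 they were -0.18 (S phase) and -0.04 (mitotic), and without WT replicate 4 they were -0.16 and -0.01, so the mitotic median changed sign. The S phase median was -0.04 without WT replicate 1 or KO replicate 4, with a mitotic median of 0.08 in each case. The medians were also -0.04 and 0.08 with the mean log2(CPM + 1) of red blood cell markers as a covariate. In the 9 libraries of series 1 alone the medians were -0.00 and 0.08. The mitotic median was also 0.02 without WT replicate 2, KO replicate 3 or KO replicate 5 and 0.01 without WT replicate 5. In KO vs HET, which shares the KO samples, the medians were -0.06 and 0.04. In HET vs WT both medians were -0.01. These are descriptions of lists of co-regulated genes, with no test.

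The same contrast was followed sample by sample, as the mean of log2(CPM + 1) over the genes of each group. The S phase mean was 6.09, 5.88, 6.00, 5.61 and 5.99 in the WT samples, 5.89, 5.92, 5.81, 5.98 and 5.90 in HET and 6.07, 5.63, 5.86, 5.57 and 5.93 in KO. The mitotic mean was 6.21, 5.99, 6.00, 5.94 and 5.92 in WT, 6.06, 5.96, 5.89, 6.12 and 6.02 in HET and 6.26, 5.96, 6.06, 5.74 and 6.14 in KO. For both groups of genes the genotypes overlapped, and the SD was largest among KO samples (0.21 for S phase and 0.20 for mitotic genes).

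The S phase mean minus the mitotic mean was -0.12, -0.11, -0.00, -0.33 and 0.07 in WT, -0.16, -0.04, -0.08, -0.14 and -0.12 in HET and -0.19, -0.33, -0.20, -0.17 and -0.21 in KO. All 5 KO samples lay below all 5 HET samples, the nearest at -0.17 in KO and -0.16 in HET. They also lay below 4 of 5 WT samples, while WT replicate 4 was as low as the lowest KO sample. The means were -0.10 ± 0.15 in WT, -0.11 ± 0.05 in HET and -0.22 ± 0.06 in KO (SD, n = 5). The difference between KO and WT of -0.12 was within 1 SD of the WT samples, and it was -0.18 without WT replicate 4 and -0.08 without WT replicate 5. Because the value within a sample depends on which genes are in each group, only differences between samples are read from it.

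**Figure D3:**
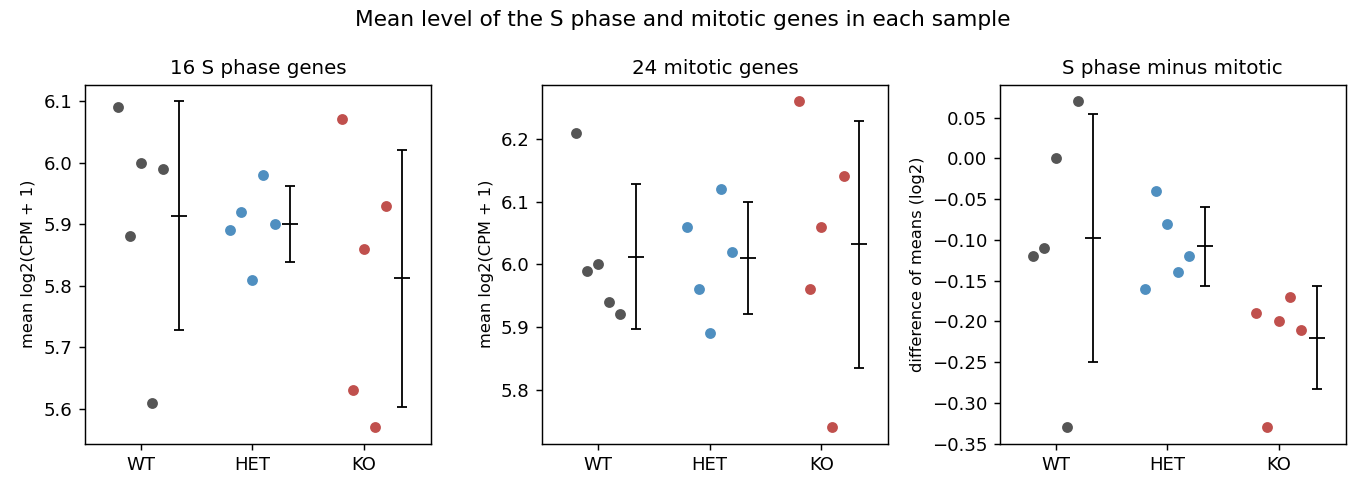
Mean log2(CPM + 1) of the 16 S phase genes (left), of the 24 mitotic genes (middle) and their difference (right) in each sample, by genotype. Points are samples in the order of replicates 1 to 5 and bars are the mean with the SD. In the right panel the KO samples lie between -0.33 and -0.17, and the WT samples spread from -0.33 to 0.07.

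Samples differed from each other along the length of the transcripts. The exon length of each gene was set against its deviation, in each sample, from its mean over the 15 samples, a check chosen after the data were seen. Over the 43 genes, Spearman's rho was 0.48, 0.29, 0.20, 0.18 and 0.16 in the KO samples, a positive value in each of them. It was -0.48, -0.29, -0.30, 0.36 and -0.17 in WT and -0.06, -0.39, -0.40, 0.41 and -0.34 in HET. Over all 14572 tested genes with a length it was 0.38, 0.09, 0.21, 0.05 and -0.11 in KO, so KO replicate 5 had the opposite sign there, and it was -0.35, -0.07, -0.21, 0.24 and -0.11 in WT and 0.01, -0.27, -0.24, 0.21 and -0.04 in HET. The median exon length was 3670 bases for the S phase genes and 4346 bases for the mitotic genes. With the trend of fold change on length over all genes subtracted, the medians in KO vs WT were -0.08 and 0.05, a difference of -0.13. The median of that trend was -0.01 for the S phase genes and -0.01 for the mitotic genes, so subtracting it could hardly change their difference. Within the S phase and mitotic genes, rho between length and fold change was 0.43, against 0.199 over all genes. Among the 10 S phase and 13 mitotic genes of 1500 to 4500 exon bases, a range chosen after the data were seen, the KO minus WT difference of the sample means was -0.11. These correlations are across genes, which are not independent. Whether the length pattern takes part in the result was not tested.

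Individual samples were high or low for many of the 43 genes at once. KO replicate 1 had the highest level of all 15 samples for 8 of 16 S phase and 11 of 24 mitotic genes, and WT replicate 1 for 5 and 9. KO replicate 4 had the lowest level for 9 S phase and 12 mitotic genes, and WT replicate 4 for 5 and 2. Among HET samples, replicate 3 was lowest for 1 S phase and 5 mitotic genes and replicate 2 for 3 mitotic genes, and HET samples were highest for 2 mitotic genes.

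**Figure D4:**
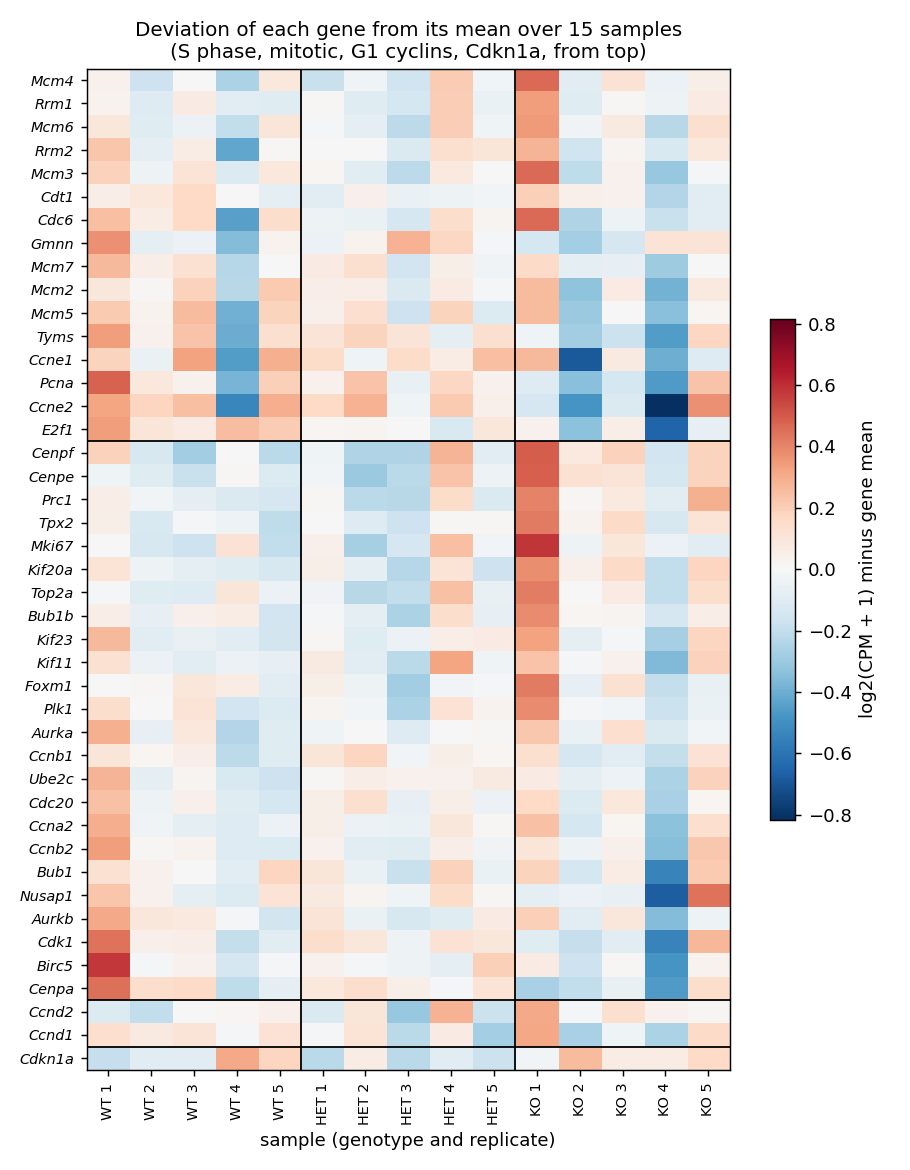
Deviation of log2(CPM + 1) from each gene's mean over 15 samples (color) for the 43 genes (rows, S phase genes at the top) in each sample (columns, by genotype and replicate). Red is above and blue below the gene's mean. KO replicate 4 is mostly blue and WT replicate 1 mostly red, and KO replicate 1 is red for 11 mitotic genes at their highest of 15 samples but blue for others such as Cdk1 and Cenpa.

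Where a title number had 2 libraries, they mostly gave similar levels. WT replicate 1 and KO replicate 4 had 1 library each, so their high or low levels could not be compared between libraries. For the 8 title numbers with 2 libraries that differed little, the SD between libraries of a number was 0.02 for the S phase mean and 0.01 for the mitotic mean. The SD between numbers of a genotype, taken over all 15 libraries of series 2, was 0.16 and 0.14. With title number 35, whose libraries differ in sex, the SD between libraries over 9 numbers was 0.03 and 0.05. For single genes, the SD between numbers in series 2 was divided by the SD between libraries of the 8 numbers. This ratio was above 1 for all 43 genes, from 1.21 to 7.33 with a median of 3.71. For title number 35 (WT replicate 2) the mitotic mean was 6.11 in one library and 5.89 in the other.

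Genes of the 2 waves moved together from sample to sample. With genotype means removed, 371 of the 384 pairs of an S phase and a mitotic gene had a Pearson r above 0 over the 15 samples (median 0.58). The median was 0.64 between S phase genes and 0.70 between mitotic genes. Ccna2 followed the mean of the other mitotic genes most closely (r = 0.96), and Cdkn1a ran opposite to both groups (r = -0.49 with S phase and -0.35 with mitotic genes). These values describe 15 samples that share scaling and depth, and no test is attached to them.

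Single pairs of S phase and mitotic markers were then compared. The 3 pairs were chosen for their use as markers, after the data were seen. Over 15 samples, Mcm2 and Mki67 gave Pearson's r of 0.19 (permutation p = 0.511, adjusted over 3 pairs 0.511) and Spearman's rho of 0.01 (permutation p = 0.965, adjusted 0.965). Pcna and Mki67 gave r of -0.22 (permutation p = 0.432, adjusted 0.511) and rho of -0.34 (permutation p = 0.212, adjusted 0.318). Mcm2 and Top2a gave r of 0.37 (permutation p = 0.169, adjusted 0.508) and rho of 0.35 (permutation p = 0.197, adjusted 0.318). Without the 2 samples farthest from the median of the first gene, r was 0.19, -0.35 and 0.31 over 13 samples. None of the 3 relations passed. All pairs were tested over the genotypes together, and with genotype means removed r was 0.31, -0.06 and 0.51.

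Other genes of the cell cycle were examined from lists of genes outside the 43. Of 40 further S phase genes, 30 had a log2 fold change below 0 in KO vs WT (median -0.11). Of these 40, 4 had an unadjusted p below 0.05, all lower, and none passed the adjusted test. Of all genes tested, 8782 of 17094 were below 0 in KO vs WT (median -0.01) and 19.3% had an unadjusted p below 0.05. In HET vs WT, 29 of the 40 were also below 0 (median -0.03), against 8401 of all genes, so the count of signs was not particular to KO. In KO vs WT, the further S phase gene with the smallest p was Rfc2, a subunit of the clamp loader of Pcna. It was at 55.0 ± 5.07 CPM in KO and 65.2 ± 6.56 CPM in WT (log2 fold change -0.25, SE 0.08, adjusted p = 0.141 by edgeR). Of 45 further mitotic genes, 24 were above 0 in KO vs WT (median 0.02), and 1 higher and 1 lower had an unadjusted p below 0.05. The higher was Ckap2, a spindle protein (0.23, SE 0.09, adjusted p = 0.205 by edgeR). Over these further genes, the S phase mean minus the mitotic mean was -0.21 ± 0.12 in WT, -0.22 ± 0.05 in HET and -0.29 ± 0.03 in KO (SD, n = 5). There the lowest HET sample and the highest KO sample were both at -0.26.

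Among 16 further regulators, 3 higher and 1 lower had an unadjusted p below 0.05, against the same 19.3% of all genes as for the lists that follow, and the smallest belonged to Ccnd3 (cyclin D3), at 141 ± 17.1 CPM in KO and 174 ± 18.1 CPM in WT (log2 fold change -0.31, SE 0.10, adjusted p = 0.138 by edgeR). Of 11 further inhibitors, 10 could be tested, 2 higher and 3 lower had an unadjusted p below 0.05, and the smallest belonged to Cdkn2d, the INK4 inhibitor p19 (-0.31, SE 0.10, adjusted p = 0.129). Cdkn2a had too few counts. Of 12 p53 targets, 1 higher and 2 lower had an unadjusted p below 0.05. Zmat3, an RNA-binding protein induced by p53, was at 32.1 ± 5.18 CPM in KO and 24.1 ± 1.34 CPM in WT (0.41, SE 0.12, adjusted p = 0.107). None of these genes passed at an adjusted p of 0.1 or below.

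Markers of the cell types in skin were read beside these results. The 8 basal keratinocyte markers summed to 6693 to 7247 CPM in WT, 5887 to 8137 in HET and 6506 to 8059 in KO (median log2 fold change 0.16 in KO vs WT, 2 of 8 at an unadjusted p below 0.05, of which 0 passed the adjusted test), and the 8 hair follicle markers to 178 to 328, 144 to 466 and 201 to 416 CPM. The 7 suprabasal markers summed to 55134 to 79149 CPM in WT, 55806 to 73840 CPM in HET and 69274 to 103147 CPM in KO (median log2 fold change 0.23, 1 of 7 at an adjusted p of 0.1 or below). The 7 fibroblast markers summed to 22758 to 36936 CPM in WT, 20158 to 32398 CPM in HET and 14882 to 29858 CPM in KO (-0.23, 0 of 7), and the 7 erythroid markers measured to 1537 to 4710, 1702 to 5599 and 2874 to 8367 CPM (0.55, 0 of 7). Neutrophil markers were low, with 7 measured that summed to 12.8 to 22.3 CPM in WT, 13.1 to 41.9 CPM in HET and 19.5 to 87.0 CPM in KO (1.62 over 6 tested, 1 at an adjusted p of 0.1 or below). The list includes S100a8 and S100a9, and the study reports S100A9 staining throughout the epidermis of psoriasis skin. These markers therefore do not stand for neutrophils alone. With the mean log2(CPM + 1) of the basal keratinocyte markers as a covariate the log2 fold change of E2f1 in KO vs WT was -0.34, and with that of the erythroid markers -0.38. With the basal covariate 1 of the 43 genes had an unadjusted p below 0.05 in KO vs WT (13.2% of all genes), and with the erythroid covariate 5 (15.6%). No hair follicle, muscle, macrophage, endothelial or melanocyte marker had an unadjusted p below 0.05 in that comparison. The part of the other cell types in these results was not tested.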

How the data were processed

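Skin RNA from WT, HET and KO embryos was made into poly(A) libraries with a strand-preserving kit, per the labels. The deposited table holds raw counts per gene symbol for 24 libraries, and the authors' processing notes name STAR, HTSeq and the build hg19, which is a human build although the samples are mouse; versions, annotation and strand setting are not given in the sources used here. No coordinates were therefore taken from the count table. Replicates are numbered by ascending title number within a genotype.

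Libraries were summed by title number and genotype. Genes were filtered with filterByExpr, scaled by TMM and tested in edgeR 4.0.16 (R 4.3.3, robust quasi-likelihood, all 3 genotypes in one fit), with Benjamini-Hochberg adjustment over 17094 genes and thresholds of 0.1 for adjusted p and 1 for absolute log2 fold change. SE was taken from the F statistic and 95% intervals from SE and the total degrees of freedom. Levels per sample used log2(CPM + 1). Limma 3.58.1 (voom), DESeq2 1.42.0, RLE factors, other filters, other replicate units and marker covariates were alternatives. Correlation tests used 100000 permutations, two-sided. The scripts were tested on simulated data with changes larger than those of the cell cycle genes. That test does not show whether changes as small as these would be found. Exon lengths came from GENCODE on GRCm38 and promoters from RefSeq, each matched by symbol.

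The 43 genes and the other lists were chosen with earlier results of these data known. Besides the 43, the gene with the smallest unadjusted p in KO vs WT is named from each further list; Cdkn2a is named as the gene not tested. The p-values measure only the spread between title numbers, which the labels do not tie to animals. Reads carry no molecular identifiers.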

Additional observations from a re-analysis of the deposited data

Results flagged for a closer look

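In a group of 5 samples, the gap between an extreme sample and its nearest neighbor was divided by the range of the group, and values above 0.71 (Dixon's 95% critical value) were listed. Among 138 groups (the 43 genes and 3 level summaries in 3 genotypes) there were 11, and chance alone flags about 1 in 20, or 6.90 here. The genes are correlated, so these are not separate events.

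WT replicate 1 was the high sample for Ccnb2 (0.721), Ccna2 (0.830), Birc5 (0.806), Kif11 (0.808), Kif23 (0.806) and the mean level of the mitotic genes (0.725) in WT. Birc5 was at 63.3 CPM in this sample and at 38.2 to 43.1 CPM in the other 4 WT samples. KO replicate 1 was the high sample for Cdc6 (0.768), Mki67 (0.775) and Plk1 (0.755) in KO. WT replicate 4 was the low sample for Ccne2 in WT (0.780), at 30.6 CPM. KO replicate 2 was the low sample for the S phase minus mitotic difference in KO (0.745), at -0.33.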

How the results depend on the processing

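No gene of the 43 was called at both thresholds under any alternative. At an adjusted p of 0.1 or below in KO vs WT there were 1 with DESeq2 (2.33%, against 8.49% of all genes), 8 with 24 separate libraries (18.6% against 23.7%), 1 with title number 35 kept apart (against 7.18%) and 0 to 3 with 1 replicate left out (1 without WT replicate 4 or KO replicate 3, against 9.74% and 4.27%, and 3 without KO replicate 5, 6.98% against 10.9%). In KO vs HET there were 13 with 24 separate libraries (30.2% against 24.6%), where libraries of the same title number count as independent. The sign was the same under all 27 alternatives for 25 genes in KO vs WT, 12 in HET vs WT and 26 in KO vs HET. Signs of values that did not pass are given as values only. No paired analysis was possible because each title number occurs in 1 genotype only. Absolute levels moved with the choice of genes. As a median over genes, the HET level was 6.00 (S phase) and 5.88 (mitotic), and the S phase minus mitotic difference was 0.08 in WT, 0.12 in HET and -0.02 in KO. Without Ccne1, Ccne2, E2f1, Foxm1, Ccna2 and Top2a, the S phase level was 6.07 in HET and 6.03 in KO, the mitotic level 5.91 in HET and the difference 0.17 in WT, 0.16 in HET and 0.10 in KO. With genes of 1500 to 4500 exon bases, an alternative added after the data were seen, the mitotic level was 5.69, 5.67 and 5.66 and the difference 0.21, 0.20 and 0.10 in WT, HET and KO. KO remained the lowest genotype in each, with a KO minus WT difference of -0.18 (without WT replicate 4) to -0.07 (without the 6 genes named).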
